A study of Mus musculus with 2 samples.

Results

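Mir126a, Mir126b, Mir221 and Mir222 are the microRNA genes of 2 loci known from blood vessel lining. They were taken as the entries whose identifiers carry these names in the GENCODE M21 annotation, 4 of the 2202 microRNA genes counted. The counts came from microRNA sequencing of hearts of female B6CASTF1/J mice, a hybrid of the C57BL/6 and CAST strains, at 4 days of age, with RNA under 30 nt selected per the labels. The series held 2 libraries of this 1 group, named biological replicates 1 and 2. The labels number the hearts' animals 3 for replicate 1 and 4 for replicate 2 and give them 1 donor entry. With no second group in the data used, the comparisons are between the members and between the 2 hearts. The hearts were sequenced whole, so counts do not show which cells held a microRNA, and fewer cells of a type cannot be told apart from less RNA per cell.

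A microRNA is cut from a hairpin in a longer transcript, and its seed, bases 2 to 8 of the mature strand, is the stretch that pairs with target transcripts. miR-126 is known as a microRNA of endothelial cells, where it supports signalling by vascular endothelial growth factor by repressing Spred1 and Pik3r2, inhibitors of that pathway. Its host Egfl7 encodes a protein secreted by endothelial cells. miR-221 and miR-222 are known in human cells for repressing KIT, the receptor of stem cell factor, and CDKN1B, an inhibitor of the cell cycle. They are expressed in endothelial cells but also in smooth muscle and blood-forming cells.

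The mature sequences are shown because seeds decide which members can share targets. They are RefSeq sequences on GRCm38.p6, written 5′ to 3′, with the seed in capitals. All 4 genes matched the table.
miR-126a-3p: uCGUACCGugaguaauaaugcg
miR-126b-5p: aUUAUUACucacgguacgaguu
miR-126b-3p: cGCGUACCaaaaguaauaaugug
miR-221-5p: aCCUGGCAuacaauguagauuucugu
miR-221-3p: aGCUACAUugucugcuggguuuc
miR-222-3p: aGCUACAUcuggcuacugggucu

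The 3p strands of Mir221 and Mir222 had the same seed, GCUACAU. Their first 8 bases were identical, and of their 23 positions 11 held the same base. Among 1738 mature microRNAs in the table, 1 other, miR-1928, had this seed, and its gene held 0 counts in both libraries. No other mature microRNA in the table had the seed CGUACCG of miR-126a-3p or either seed of Mir126b, so the 3 strands shown for the Mir126 locus had no seed in common. miR-126a-5p and miR-222-5p were not compared. The seed of miR-126b-3p does contain CGUACC, the run that begins the seed of miR-126a-3p, at a shifted position.

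Mir126a (ENSMUSG00000065540.1; mm10, chromosome 2, 26591357 to 26591429, plus strand) lies within Egfl7 on the same strand. Of the 19 annotated Egfl7 transcripts, 8 hold it in an intron, 7 of them protein-coding, and 1, a transcript with a retained intron, holds it in an exon, while 10 do not reach it. It also lies in an intron of Gm20532, an overlapping gene of the same strand. Mir126b (ENSMUSG00000105799.1; chromosome 2, 26591363 to 26591420, minus strand) is nested in Mir126a on the other strand. The hairpins are shown because they are each other's complement, with the mature strands shown above in capitals.
Mir126a: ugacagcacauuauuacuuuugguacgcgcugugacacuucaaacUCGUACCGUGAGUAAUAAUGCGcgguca
Mir126b: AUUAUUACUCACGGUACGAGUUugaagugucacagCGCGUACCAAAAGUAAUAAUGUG

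The complement of the whole 58-nt Mir126b hairpin was found at positions 7 to 64 of the 73-nt Mir126a hairpin, counted from its 5′ end. miR-126b-5p overlaps miR-126a-3p over 19 bases on the other strand, so only the strand of a read tells them apart. The computed folding energy was −31.2 kcal/mol for the Mir126a hairpin and −19.3 kcal/mol for that of Mir126b. Per nucleotide this was −0.43 and −0.33 kcal/mol, against a median of −0.41 over 968 mouse hairpins.

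Mir221 (ENSMUSG00000065422.1; chromosome X, 19146294 to 19146388, minus strand) and Mir222 (ENSMUSG00000065471.1; chromosome X, 19146893 to 19146971, minus strand) lie 504 nt apart. No annotated gene overlaps either, and the nearest other gene, Gm14636, a noncoding transcript of the same strand, lies 10009 nt from Mir222. Their hairpins folded with −42.8 kcal/mol for Mir221 and −40.7 kcal/mol for Mir222, or −0.45 and −0.52 kcal/mol per nucleotide. None of the 4 hairpins shared a stretch of 20 nt with an annotated transcript of another locus. The search covered annotated transcripts and not the rest of the genome.

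Replicate 1 held 6417302 counts on the genes' own strand and replicate 2 held 5662222. Multi-mapped reads, 39.6% of all reads in replicate 1 and 43.2% in replicate 2, are in no gene's count. The heart muscle genes Mir208a, Mir208b and Mir499, which lie in introns of myosin genes, were present in both libraries at 2653 to 10883 CPM. CPM is the count of a gene in every 1000000 own-strand counts of its library. Each microRNA read spans about 1 mature strand, so counts were compared without division by hairpin length, and they sum both arms of a hairpin.

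Mir126a was the abundant member, and its opposite-strand partner Mir126b was at the limit of detection. Mir126a had 332605 own-strand counts in replicate 1 and 413403 in replicate 2. That was 51829 CPM in replicate 1 and 73011 CPM in replicate 2 (mean 62420 ± 14977 CPM, SD, n = 2). By own-strand counts its rank was 4 in both libraries. Multi-mapped reads are in neither the ranks nor the shares given here, so genes with near-identical copies may rank too low. The share of Mir126a in the own-strand counts was 5.18% in replicate 1, with a 95% Clopper-Pearson interval of 5.17 to 5.20. In replicate 2 it was 7.30%, with an interval of 7.28 to 7.32. These intervals cover counting error only, as do all others here, and the gap between the hearts was far wider than either.

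Mir126b had 4 counts in replicate 1 and 3 in replicate 2, or 0.623 CPM and 0.530 CPM. A floor of 3 counts corresponds to 0.467 CPM in replicate 1 and 0.530 CPM in replicate 2, so Mir126b lay at or just above it. Mir126b made up 0.00120% of the reads of the locus in replicate 1 (95% Clopper-Pearson limits 0.000328 and 0.00308) and 0.000726% in replicate 2 (0.000150 and 0.00212). Both libraries thus gave the locus almost wholly to the Egfl7 strand.

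The same share was measured in genes that have no microRNA gene on the other strand. Over these 2138 genes, 134 of the reads in replicate 1 and 89 in replicate 2 lay on the opposite strand, or 0.00258% (95% Clopper-Pearson limits 0.00216 and 0.00306) and 0.00198% (0.00159 and 0.00244). The minus-strand share at Mir126a was therefore not above this pooled background. The background was uneven between genes. Of the 12 such genes with at least 100000 own-strand counts in each library, 11 had 0 opposite-strand reads in both and Mirlet7b had 3 in each.

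Mir126a and Mir126b were 1 of 11 pairs of overlapping opposite-strand microRNA genes with at least 1000 counts over the pair in each library. In 5 pairs the lesser strand had 0 counts in both hearts. In 4 pairs its share, in the library where it was higher, exceeded that of Mir126b. The largest shares were those of Mir3074-1 opposite Mir24-1 (11.2% in replicate 1 and 1.85% in replicate 2) and of Mir3107 opposite Mir486 (3.03% and 3.34%). These shares leave out multi-mapped reads. Where a gene has near-identical copies, they are not shares of all reads of the locus.

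The strand of the count decides whether Mir126a is seen at all. In the deposited column that ignores strand, Mir126a had 17 counts in replicate 1 and 19 in replicate 2, and Mir126b had 0 in both. Its rank there was 344 in replicate 1 and 307 in replicate 2. The missing 332588 and 413384 reads are those that overlap both genes, and they made up 27.2% and 35.1% of the reads left unassigned in that column because genes on both strands overlapped. The opposite-strand column of Mir126b held exactly these numbers, so the 17 and 19 reads are those outside the nested hairpin. Mir221 had the same count with and without strand, and Mir222 differed by 2 reads.

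**Figure D1:**
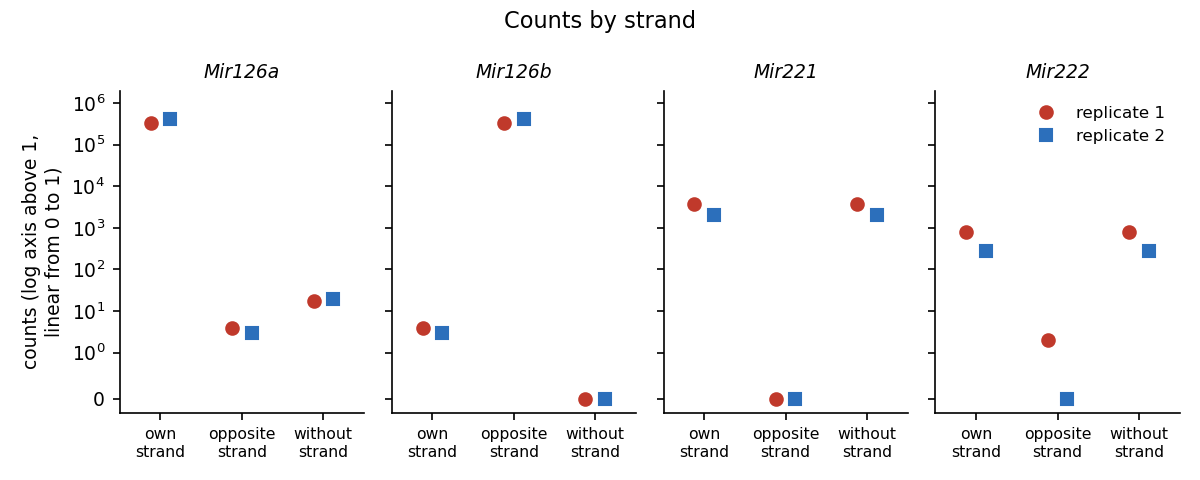
Counts of each member on its own strand, on the opposite strand and in the column that ignores strand, on an axis that is logarithmic above 1 and linear from 0 to 1, for replicate 1 (circles) and replicate 2 (squares). Mir126a has 17 and 19 counts without strand, against 332605 and 413403 on its own strand, while Mir221 and Mir222 have nearly the same counts in both columns.

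Mir221 was the stronger of the X-linked pair in both hearts. It had 3662 counts in replicate 1 and 2091 in replicate 2, or 571 CPM and 369 CPM (mean 470.0 ± 142 CPM, SD, n = 2). Its rank was 95 in replicate 1 and 109 in replicate 2. On the opposite strand it had 0 counts in both, and the floor of 3 counts allows a share of up to 0.0819% in replicate 1 and 0.143% in replicate 2. The upper limits of the two-sided 95% Clopper-Pearson interval were 0.101% in replicate 1 and 0.176% in replicate 2.

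Mir222 had 774 counts in replicate 1 and 278 in replicate 2, or 121 CPM and 49.1 CPM (mean 84.9 ± 50.6 CPM, SD, n = 2). Relative to its mean, Mir222 had a wider spread between the hearts than Mir221 or Mir126a. Its rank was 164 in replicate 1 and 205 in replicate 2. The median of the 373 genes that reached 10 counts in both libraries was 75.2 CPM, which lies between the Mir222 levels of the 2 hearts. On the opposite strand Mir222 had 2 counts in replicate 1 and 0 in replicate 2, where the floor of 3 counts allows a share of up to 1.08% and the upper Clopper-Pearson limit was 1.32%.

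Together the 4 genes took 5.25% of replicate 1's counts and 7.34% of replicate 2's, of which Mir126a made up 98.7% and 99.4%. Mir221 and Mir222 together took 0.0691% of replicate 1 and 0.0418% of replicate 2. The order Mir126a, Mir221, Mir222, Mir126b was the same in both libraries, and no neighbours in it came within the spread between the hearts.

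**Figure D2:**
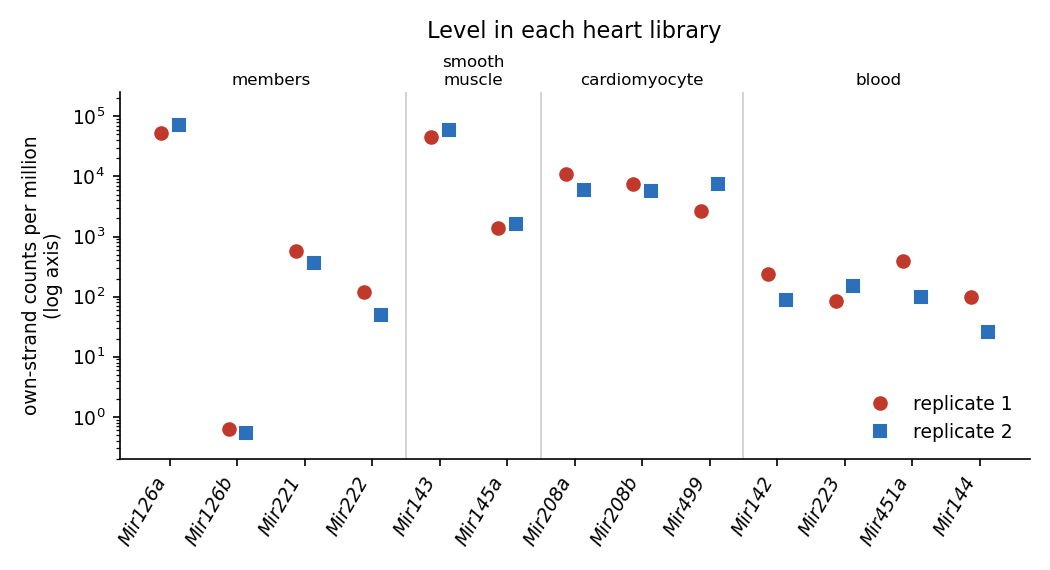
Own-strand CPM on a log axis for the members and for marker genes of smooth muscle, cardiomyocytes and blood, in replicate 1 (circles) and replicate 2 (squares). Mir126a lies near the smooth muscle gene Mir143, and both levels of Mir222, 121 and 49.1 CPM, lie within the range of the blood genes.

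Between the 2 libraries, Mir126a was higher in replicate 2, and Mir221 and Mir222 were higher in replicate 1. Each heart gave 1 library, so heart and library preparation cannot be told apart here or wherever the hearts are compared. Genes with 10 or more counts over both libraries entered a two-sided exact binomial test. Library sizes were scaled with TMM factors, which line up the bulk of the genes, and p-values were adjusted by the Benjamini-Hochberg method. A call needed a fold over 2 and an adjusted p below 0.05. This test compares 2 libraries, not conditions, and its only noise is counting. Of 491 genes tested, 55 were called, or 11.2%, with 18 higher in replicate 1 (3.67%) and 37 higher in replicate 2 (7.54%). None of the 3 members tested was called, and Mir126b had too few counts for the test.

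With TMM scaling Mir126a had a log2 ratio of replicate 1 over replicate 2 of −0.83 (counting SE 0.0034). Mir126a was thus 1.77-fold higher in replicate 2, inside the 2-fold limit, and by CPM it was 1.41-fold higher. Of the 491 genes, 106 had a larger absolute ratio. None of the 11 other genes within 3-fold of its level did, and their median log2 ratio was −0.39. Mir221 had a log2 ratio of 0.30 (counting SE 0.04; exact binomial test, adjusted p = 2.14e-13), a 1.23-fold higher level in replicate 1, and 313 genes had a larger absolute ratio. The median absolute ratio was 0.44 over all genes tested and 0.35 over the 84 others within 3-fold of the Mir221 level. Of those 84, 47 had a larger absolute ratio, so with TMM scaling Mir221 lay near the middle of genes of its level.

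Mir222 had a log2 ratio of 0.96 (counting SE 0.10; exact binomial test, adjusted p = 9.25e-23), a 1.95-fold higher level in replicate 1. Of all genes, 87 had a larger absolute ratio, as did 19 of the 97 others within 3-fold of its level. It lay so close to the 2-fold limit that the scaling decided the call. Scaled by total counts its log2 ratio was 1.29 and it was called (exact binomial test, adjusted p = 2.03e-41), and with DESeq2 size factors it was 1.01 and also called (adjusted p = 6.65e-25). Total-count scaling moved the median of all genes tested to 0.31, against −0.02 with TMM, and turned the calls to 39 higher in replicate 1 and 22 higher in replicate 2. The log2 ratio of Mir126a was −0.49 with total counts and −0.78 with DESeq2 size factors, and that of Mir221 was 0.63 and 0.34. The sizes thus depended on the scaling, while the directions of the 3 members were the same under TMM, total counts and DESeq2 size factors.

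When the spread between the 2 hearts was estimated over the 373 genes with 10 or more counts in both and used in edgeR's exact test of the 491 genes, it corresponded to a coefficient of variation of 0.34. In that test the adjusted p was 1 for Mir126a, Mir221 and Mir222, and 4 of the 491 genes were called. The noise of edgeR's exact test came from the same 2 libraries that it compared, so a difference of typical size could not be called. A member that was not called may still differ between the hearts.

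**Figure D3:**
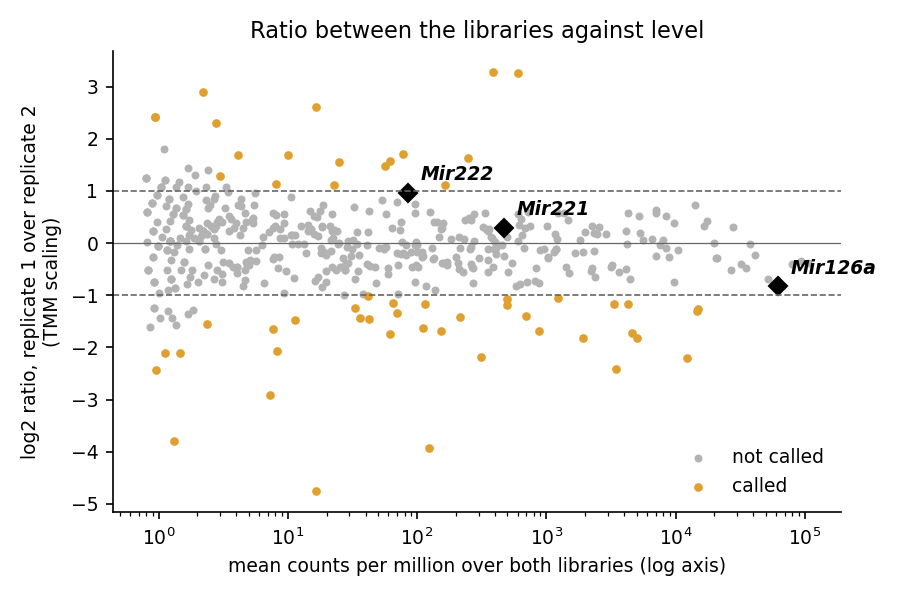
Log2 ratio of replicate 1 over replicate 2 with TMM scaling against the mean level on a log axis for the 491 genes tested. The dashed lines mark 2-fold, orange points the 55 called genes and black diamonds the members, of which Mir222 (0.96) lies just under the upper line and Mir126a (−0.83) just above the lower one.

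Ratios between genes of the same library do not depend on the scaling. They are ratios of reads, and how they relate to numbers of molecules was not tested. Mir221 made up 82.6% of the sum of Mir221 and Mir222 in replicate 1, with 95% Clopper-Pearson limits of 81.4 and 83.7. In replicate 2 it made up 88.3%, with limits of 86.9 and 89.5, and the mean was 85.4% ± 4.04 (SD, n = 2). As a ratio this was 4.73 in replicate 1 and 7.52 in replicate 2. The intervals did not overlap, so the balance within the cluster differed between the libraries by more than counting error. Mir126a outnumbered Mir221 90.8-fold in replicate 1 and 198-fold in replicate 2, and it outnumbered Mir222 430-fold in replicate 1 (interval 400 to 462) and 1487-fold in replicate 2 (1322 to 1679). The 2 loci thus stood 2.18-fold further apart in replicate 2 when measured with Mir221 and 3.46-fold when measured with Mir222. Of the 491 genes tested, 433 had a higher log2 ratio than Mir126a, 147 a higher one than Mir221 and 38 a higher one than Mir222. The direction of the change was thus the usual case for a ratio of Mir126a to any gene.

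Against genes that mark other cells of the heart, Mir126a kept closest to the smooth muscle gene Mir143. Mir126a over Mir143 was 1.13 in replicate 1, with Clopper-Pearson limits of 1.13 and 1.14, and 1.24 in replicate 2, with limits of 1.24 and 1.25. Mir126a over Mir208a, the cardiomyocyte gene in Myh6, was 4.76 in replicate 1 and 12.1 in replicate 2. Mir126a over Mir142, a gene of blood cells, was 216 in replicate 1 and 835 in replicate 2. Over all 12 marker genes of smooth muscle, cardiomyocytes, blood and epithelium, the ratio of Mir126a to the marker was higher in replicate 2 for 9 and higher in replicate 1 for 3. All these ratios share the shift of Mir126a itself. Of the 491 genes tested, 433 had a higher log2 ratio than Mir126a and 57 a lower one. A ratio higher in replicate 2 was thus the usual case for any gene, and the 9 markers are not a result about the markers. The 3 were Mir499 of cardiomyocytes (19.5 in replicate 1 and 9.75 in replicate 2), Mir223 of blood (624 and 492) and the epithelial Mir205 (36956 and 2297, on 9 and 180 counts of Mir205). Within the cardiomyocyte, blood and epithelial lists the ratios thus did not all go one way.

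**Figure D4:**
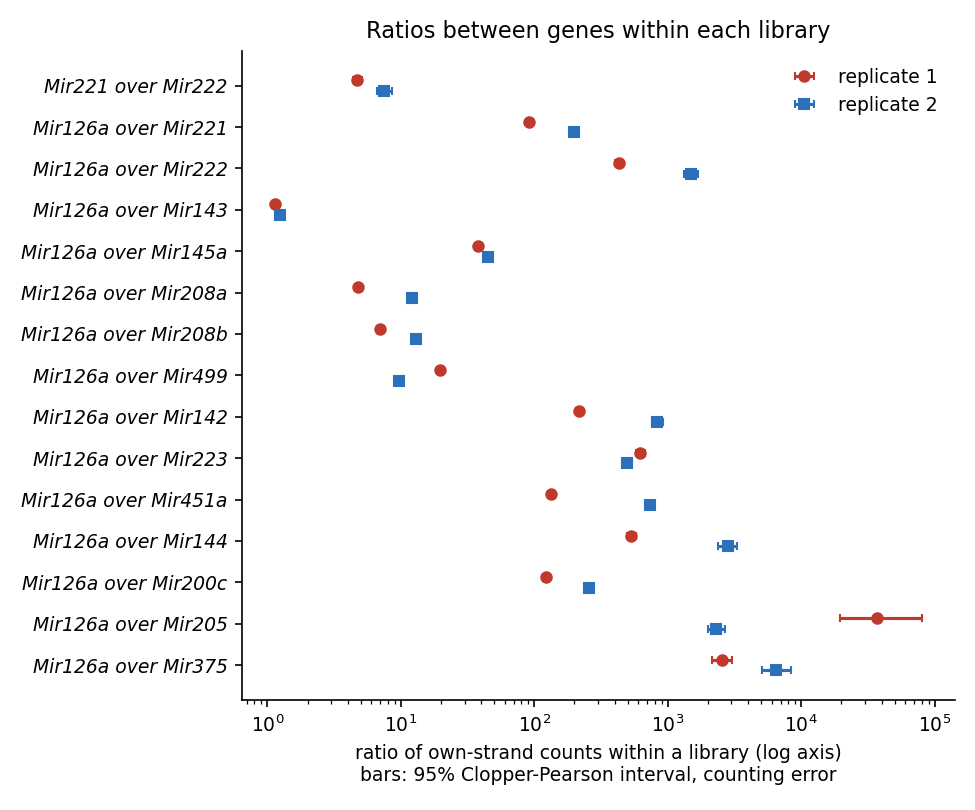
Ratios of own-strand counts within a library on a log axis, with 95% Clopper-Pearson intervals, for replicate 1 (circles) and replicate 2 (squares). Mir126a over Mir143 is nearly the same in both (1.13 and 1.24), while the ratios to Mir221, Mir222 and most markers are further apart. The marker ratios are higher in replicate 1 for Mir499, Mir223 and Mir205. They are higher in replicate 2 for the other 9 markers, as for 433 of all 491 genes tested.

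The 4 blood genes listed did not all go one way, and other microRNA genes of blood cells were not surveyed. Of the 4, 3 were called higher in replicate 1 and 1 higher in replicate 2, against 3.67% and 7.54% of all genes tested. The 3 were Mir451a (2515 and 566 counts, log2 ratio 1.64), Mir144 (622 and 147, 1.56) and Mir142 (1538 and 495, 1.12). Mir451a and Mir144 are cut from 1 erythroid transcript. Mir223, known from myeloid cells, was called higher in replicate 2 (533 and 840, −1.17), a call lost under scaling by total counts. Summed, the 4 genes took 0.0812% of replicate 1 and 0.0362% of replicate 2. In edgeR's exact test none of them had an adjusted p under 0.05. The part of blood cells in the levels of Mir221 and Mir222 was not tested.

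The smooth muscle genes Mir143 and Mir145a were on the side of Mir126a, with log2 ratios of −0.69 and −0.58, and neither was called. They took 4.71% of replicate 1 and 6.03% of replicate 2. The cardiomyocyte genes went different ways, with log2 ratios of 0.52 for Mir208a, 0.07 for Mir208b and −1.83 for Mir499, which was called higher in replicate 2. Of 3 epithelial genes, Mir205 was called higher in replicate 2 (9 and 180 counts), and Mir200c and Mir375 were not called. The part of these cells in the members' levels was not tested either.

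A further 22 microRNA genes known from endothelial cells or vessel growth were all measured, each with at least 10 counts in both libraries. Their median level was 841 CPM. Of them 17 lay above Mir221 and 19 above Mir222, and none reached Mir126a, the highest being Mir23b at 41012 CPM. Between the libraries 0 were called higher in replicate 1, 3 were called higher in replicate 2 and 19 were not called, against 3.67% and 7.54% of all genes tested. The 3 were Mir27b (19520 and 30888 counts, log2 ratio −1.18), Mir18 (2372 and 3514, −1.08) and Mir503 (5944 and 8646, −1.05). The median log2 ratio of the list was −0.20, against −0.02 over all genes tested. With total-count scaling none was called and the median was 0.13, against 0.31 over all genes. Several of these genes have near-identical copies, whose multi-mapped reads are not in the counts.

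The genes closest to each member were found by the distance of log2 CPM over the 2 libraries among the 373 genes with 10 or more counts in both. For Mir126a they were Mir143, Mirlet7g, Mirlet7i, Mir23b and Mir378a, at distances of 0.36 to 1.15. For Mir221 they were Mir330, Mir339, Mir874, Mir434 and Mir369, at 0.11 to 0.35, with Mir330 at 3841 counts in replicate 1 and 2219 in replicate 2. For Mir222 they were Mir493, Mir673, Mir338, Mir370 and Mir467c, at 0.35 to 0.53, with Mir493 at 837 counts in replicate 1 and 350 in replicate 2. A likeness over 2 libraries rests mostly on the level. Mir222 was not among the genes closest to Mir221.

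The unequal read counts of Mir221 and Mir222 were set beside those of other neighbours. Among 63 pairs of adjacent same-strand microRNA genes no more than 1000 nt apart and detected as above, the median absolute log2 ratio within a pair, averaged over the libraries, was 2.56. For Mir221 over Mir222 it was 2.58, and 30 pairs were more unequal. The change of the ratio between the libraries was 0.67 on the log2 scale for Mir221 and Mir222, against a median of 0.59, and 23 pairs changed more. Both values thus lay near the middle of the pairs, which were chosen after the counts were seen. Several genes of these pairs have near-identical copies, whose multi-mapped reads are not in the counts. How far this moved the ratios within the pairs, and so the medians, was not tested.

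**Figure D5:**
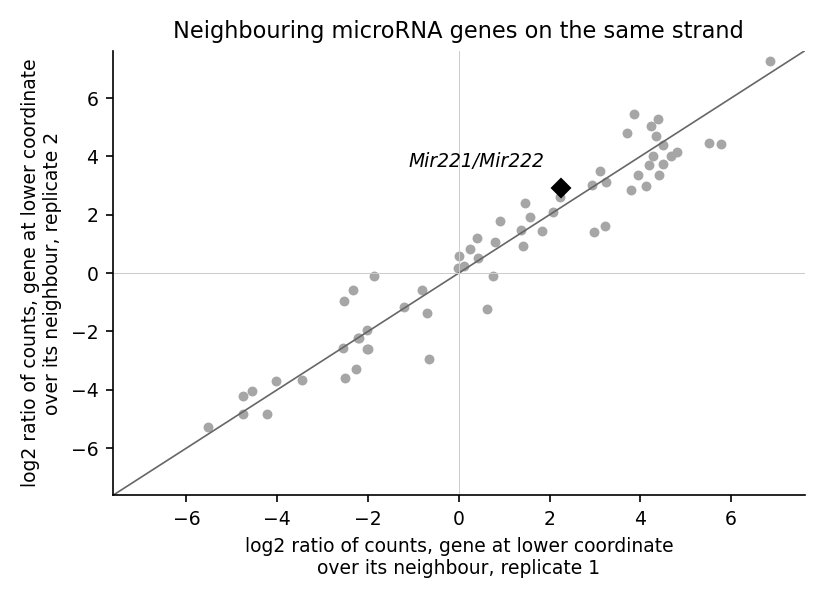
Log2 ratio of counts of the gene at the lower coordinate over its same-strand neighbour no more than 1000 nt away, in replicate 1 (horizontal axis) and replicate 2 (vertical axis), for 63 pairs. Points on the diagonal have the same ratio in both hearts, and Mir221/Mir222 (2.24 in replicate 1, 2.91 in replicate 2) lies above it.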

How the data were processed

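Each library has 1 deposited table of unnormalized read counts by microRNA gene. Its columns hold both strands together, the own strand and the opposite strand, and its 4 summary entries were kept out of library sizes and tests. Per the deposited descriptions the build is mm10 and the annotation GENCODE M21, to which all 2202 identifiers matched. How reads were trimmed, aligned and counted was not given in the sources used here, and the meaning of the columns was read from the layout and the overlapping genes. Of 14450527 reads in replicate 1 and 13495259 in replicate 2, 44.4% and 42.0% were assigned on the own strand. CAST variants were not examined.

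TMM factors (1.12 and 0.891, edgeR 4.0.16, R 4.3.3) used genes with at least 10 counts in the sum, and 0.5 was added to counts in log2 ratios. DESeq2 1.42.0 gave size factors only. Folding energies came from RNAfold 2.7.2, statistics from Python 3.11.15 with scipy 1.17.1 and pandas 2.3.3, and plots from matplotlib 3.10.9. Without molecular identifiers named in the labels, reads are not independent molecules. The named genes were the members and, for each detected one, the 5 nearest by log2 CPM. The members and lists were chosen with earlier results of these data known.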

Additional observations from a re-analysis of the deposited data

How the results depend on the processing

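Levels depended on the denominator and the strand column. With all reads as the denominator of CPM, Mir126a held 26825, Mir126b 0.250, Mir221 204 and Mir222 37.1 CPM. In the column without strand Mir126a held 3.75 CPM and Mir126b 0. Without the 10 most abundant genes in the total, a choice made after seeing the data, Mir126b held 1.33, Mir221 1080 and Mir222 194 CPM. Leaving out 1 library gave Mir126a 51829 to 73011, Mir126b 0.530 to 0.623, Mir221 369 to 571 and Mir222 49.1 to 121 CPM. The log2 ratio of Mir222 was 1.29 with total counts, 1.01 with DESeq2 size factors and 1.21 without the 10 most abundant genes, each called. At a fold limit of 1.5, Mir222 (0.96) and Mir126a (−0.83) were called and 97 genes in all, against 4 with edgeR's exact test, which had 29 at an unadjusted p under 0.05. No alternative reversed the direction of Mir126a, Mir221 or Mir222. Mir126b was 1.18-fold higher in replicate 1 by CPM, and its log2 ratio was −0.15 with TMM and no filter on counts. No paired analysis was possible because there is 1 group. Depth limits Mir126b, with 4 counts in replicate 1 and 3 in replicate 2.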
